A study of Mus musculus with 11 samples.

Results

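Aminoacyl-tRNA synthetases, the enzymes that join each amino acid to its tRNA, were followed in cultured mouse hippocampal neurons after 4 h of low oxygen. The 36 genes were chosen by symbol among the 48709 gene IDs of the count tables, 20 for enzymes of the cytosol and 16 for enzymes of mitochondria, whose symbols end in 2. All 36 passed the filter on low counts, by which 16235 genes were tested. Primary hippocampal neurons were cultured at 20% oxygen for 10 days, and then either stayed at 20% oxygen (control, 6 libraries) or were placed at 1% oxygen for 4 h in a hypoxia workstation (hypoxia, 5 libraries). Both groups are described as sharing an isolation of cells, and the labels name no strain, age, genotype or other agent. Whether the libraries of a group were separate dishes is not given. The p-values set the difference between groups against the spread of these libraries only, and some of that spread may be technical.

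Each synthetase recognises 1 amino acid and the tRNAs that carry it, and the charged tRNAs are what the ribosome reads. Cells need a set for the cytosol and a set for the mitochondrial ribosome, which makes a few subunits of the respiratory chain, and the mitochondrial set is encoded in the nucleus and imported. In most cases separate genes serve the compartments, but Gars and Kars each make both forms. Several cytosolic enzymes are held in a large multi-synthetase complex by scaffold proteins, and many cytosolic synthetase genes are known targets of ATF4, the transcription factor of the integrated stress response, which binds a composite element with the letters TGATGNAA.

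Promoter stretches of some synthetase genes are shown first, since the sets differ in how many members hold the ATF4 letters. They run from 5′ to 3′ on the gene's strand, end 30 bases after the RefSeq start of transcription (GRCm38.p6), and have each TGATGNAA match, on either strand, in capitals. The first 5 genes rose in hypoxia and hold a match, Eprs rose and holds none, and Mars2 fell and holds none.
Iars, chr13:49682070-49682159, + strand: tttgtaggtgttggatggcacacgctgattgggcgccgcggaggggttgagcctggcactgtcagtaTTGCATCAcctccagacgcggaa
Aars, chr8:111033712-111033871, + strand: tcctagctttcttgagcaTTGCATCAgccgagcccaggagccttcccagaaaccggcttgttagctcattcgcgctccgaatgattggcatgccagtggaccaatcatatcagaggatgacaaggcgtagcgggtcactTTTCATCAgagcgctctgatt
Gars, chr6:55037941-55038030, + strand: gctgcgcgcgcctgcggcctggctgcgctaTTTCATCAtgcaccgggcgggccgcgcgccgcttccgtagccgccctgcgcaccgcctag
Tars, chr15:11399629-11399718, - strand: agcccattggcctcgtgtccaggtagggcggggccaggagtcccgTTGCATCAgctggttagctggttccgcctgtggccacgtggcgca
Yars, chr4:129189843-129189932, + strand: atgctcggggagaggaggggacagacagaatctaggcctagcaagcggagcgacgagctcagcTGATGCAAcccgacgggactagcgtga
Eprs, chr1:185362984-185363073, + strand: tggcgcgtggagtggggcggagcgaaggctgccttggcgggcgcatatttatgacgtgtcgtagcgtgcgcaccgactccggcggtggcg
Mars2, chr1:55237117-55237206, + strand: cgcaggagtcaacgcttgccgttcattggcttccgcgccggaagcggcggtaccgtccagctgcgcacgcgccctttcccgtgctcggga

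RefSeq windows of 250 bases before to 50 bases after the start were given for 13 cytosolic and 14 mitochondrial genes. Those of Cars, Hars, Lars, Nars, Rars, Vars, Wars, Hars2 and Pars2 were not used here. TGATGNAA, searched on both strands, lay in the windows of 5 of the 13 cytosolic genes and of 0 of the 14 mitochondrial genes, beside 3.97% of all 32851 windows of the same length. The 5 were among the 10 cytosolic genes with a window that rose in hypoxia, and the 3 with a window that did not pass the test (Kars, Qars and Farsa) held none. In Tars the match began 15 bases before the start and in Gars 30 bases before it. In Yars and Iars it began 4 and 8 bases into the transcript, and Aars had 1 match 112 bases before the start and another 10 bases after it. The cAMP response element TGACGTCA lay in no window of either set, beside 1.79% of all windows. The core letters of the hypoxia response element (ACGTG or GCGTG, both strands) lay in the windows of 13 of 13 cytosolic and 11 of 14 mitochondrial genes, beside 43.8% of all windows. A match is a run of letters and was not tested as a binding site.

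Levels are given as CPM, a library's counts scaled to a total of 1000000 with TMM factors, and changes as the log2 fold change of hypoxia over control. A gene was called higher or lower at a Benjamini-Hochberg adjusted p under 0.05 in edgeR's quasi-likelihood test over all genes tested. The shallowest library was control 1, with 16619493 counts, and the deepest hypoxia 5, with 31917157, and the lowest count of a cytosolic synthetase in any library was 774 (Vars, control 1). Neuron markers, led by Map2, were abundant, with 0 of 9 called. Markers of other cells were present at lower summed levels. Oligodendrocyte lineage markers summed to 96.2 to 122 CPM in control and 77.7 to 93.6 CPM in hypoxia, with 3 of 7 lower (Olig1, Olig2 and Mog), beside 12.8% of all genes tested. Of 6 astrocyte markers Aqp4 was lower, and their sum was 1435 to 1643 CPM in control and 1418 to 1550 CPM in hypoxia. None of the microglia, endothelial and mural or fibroblast markers tested was called (the most abundant were Aif1, Kdr and Col3a1), and P2ry12 and Cldn5 were too low to test. In bulk RNA, fewer cells of a type and less RNA per cell cannot be told apart, and the part of these markers in the synthetase results was not tested.

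Most cytosolic synthetase transcripts rose modestly after 4 h at 1% oxygen and none was called lower. Of the 20 cytosolic genes, 13 were higher and 0 lower, beside 10.1% of all genes tested called higher and 12.8% called lower. The balance of these shares shifts with the method. Over all genes 1644 were higher and 2078 lower here, 1872 and 1877 with RLE factors, and 2064 and 1827 by DESeq2. The cytosolic count was 14 higher and 0 lower in both alternatives. Among the 3554 genes whose control level lay in the range of the cytosolic set, 16.9% were called higher. The cytosolic set had a median log2 fold change of 0.14, beside -0.02 for all genes tested. Of the 16 mitochondrial genes 2 were higher and 4 lower, and their median log2 fold change was -0.12. Among the 6343 genes in the level range of the mitochondrial set (Lars2 left out), 11.2% were higher and 16.1% lower. The difference between the sets is given by these counts and was not tested as such.

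**Figure D1:**
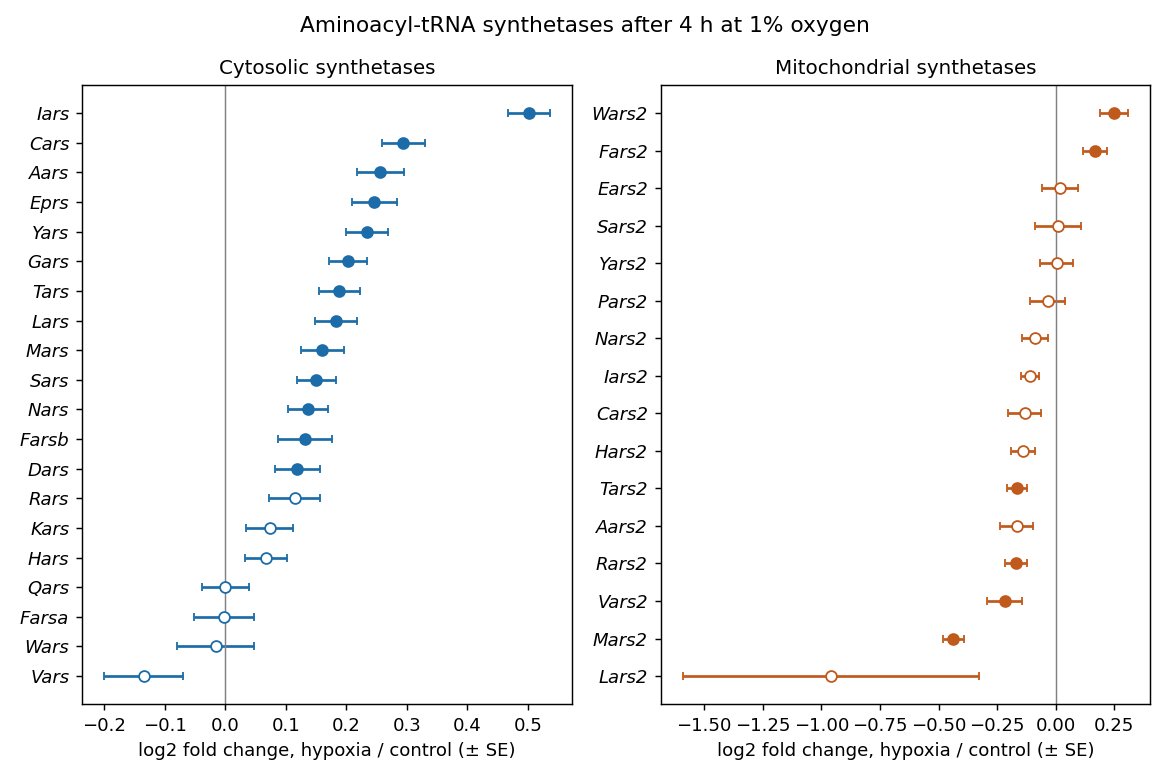
The log2 fold change of hypoxia over control, with its SE, for the 20 cytosolic (left) and 16 mitochondrial (right) synthetases. The axes of the panels differ in scale; filled points passed the edgeR test (adjusted p under 0.05). The 13 filled cytosolic points lie above 0, and the 6 filled mitochondrial points lie on both sides of it.

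Isoleucyl-tRNA synthetase had the largest increase of the set. Iars (ENSMUSG00000037851, chromosome 13, 49682100 to 49734267, GRCm38) stood at 101, 93.0, 93.7, 97.1, 94.0 and 91.7 CPM in control 1 to 6. In hypoxia 1 to 5 it stood at 139, 136, 132, 135 and 131 CPM, so that every hypoxia library was above every control library by a wide gap. The mean rose from 95.1 ± 3.46 to 134.6 ± 3.07 CPM (SD, n = 6 and 5), a 1.42-fold increase with a log2 fold change of 0.50 (SE 0.03, adjusted p = 7.96e-08). Iars is an enzyme of the multi-synthetase complex, and its change stood apart in size from the other cytosolic enzymes, the next of which had a log2 fold change of 0.29.

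That next enzyme was cysteinyl-tRNA synthetase. Cars (chromosome 7, 143557230 to 143600090) was at 68.5, 67.6, 73.9, 72.8, 73.5 and 73.7 CPM in control 1 to 6 and at 90.4, 87.8, 87.1, 87.3 and 87.3 CPM in hypoxia 1 to 5. The groups did not overlap, and the hypoxia libraries were closer to each other than the control libraries were (log2 fold change 0.29, SE 0.04, adjusted p = 2.40e-05).

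Alanyl-tRNA synthetase, which also edits wrongly charged tRNAs, rose from the highest level of the cytosolic set in CPM. Aars (chromosome 8, 111033144 to 111057664) was at 258, 264, 288, 289, 293 and 286 CPM in control 1 to 6 and at 337, 322, 327, 337 and 348 CPM in hypoxia 1 to 5. Control 1 and control 2 were the lowest libraries, and the groups did not overlap (log2 fold change 0.26, SE 0.04, adjusted p = 0.000198). In GENCODE M21 the gene model of Exosc6 shares all of its 1326 exonic bases with Aars on the same strand, so reads of that stretch cannot be assigned to 1 of the genes.

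Eprs joins 2 synthetases, for glutamate and for proline, in 1 protein of the complex. It was at 229.8, 227, 222, 223, 210 and 212 CPM in control 1 to 6 and at 259, 276, 267, 262 and 245 CPM in hypoxia 1 to 5. Every hypoxia library was above the highest control, with hypoxia 5 the closest to it (log2 fold change 0.25, SE 0.04, adjusted p = 0.000169). Tyrosyl-tRNA synthetase, Yars, was at 160.3, 158, 164, 166, 169.5 and 162 CPM in control and at 191, 189, 185, 189 and 206 CPM in hypoxia. Hypoxia 5 stood above the other hypoxia libraries, and all of them were above the controls (log2 fold change 0.23, SE 0.03, adjusted p = 0.000157).

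Glycyl-tRNA synthetase, whose single gene serves both compartments, rose with the cytosolic enzymes. Gars was at 248, 233, 246, 238, 239 and 230.0 CPM in control 1 to 6 and at 279.7, 271, 265, 278 and 281 CPM in hypoxia 1 to 5, with no overlap (log2 fold change 0.20, SE 0.03, adjusted p = 0.000273). Threonyl-tRNA synthetase, Tars, was at 73.2, 71.3, 75.2, 73.0, 74.9 and 74.2 CPM in control and at 80.9, 85.5, 81.0, 86.2 and 86.0 CPM in hypoxia. Here too the groups were separate (log2 fold change 0.19, SE 0.03, adjusted p = 0.000838). Leucyl-tRNA synthetase, Lars, which also senses leucine for mTORC1, was at 123, 121, 122, 119, 116 and 114 CPM in control and at 129.98, 138, 131, 140.5 and 136 CPM in hypoxia (log2 fold change 0.18, SE 0.03, adjusted p = 0.00130).

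**Figure D2:**
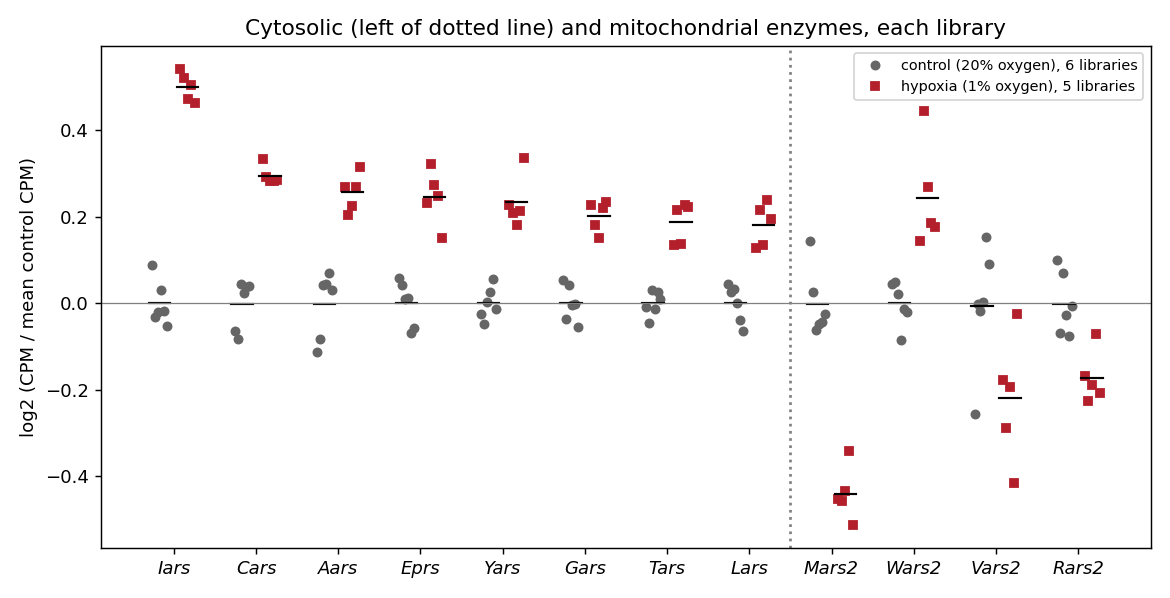
The level of 12 synthetases in each library, as log2 of its CPM over the gene's mean control CPM, with circles for the 6 control and squares for the 5 hypoxia libraries and a black line at each group's mean of these values. The 8 cytosolic enzymes on the left have no overlap between groups. On the right Mars2 and Wars2 have none, whereas Vars2 and Rars2 overlap.

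The other 5 cytosolic genes called higher changed by less. Mars, the methionyl enzyme, rose by 0.16 on the log2 scale (adjusted p = 0.00394), Sars, the seryl enzyme, by 0.15 (0.00351), and Nars, the asparaginyl enzyme, by 0.14 (0.00652). The groups did not overlap for these 3. Farsb, the beta subunit of the phenylalanyl enzyme, rose by 0.13 on this scale (adjusted p = 0.0448) and Dars, the aspartyl enzyme, by 0.12 (0.0284), and both overlapped between groups. Both calls depended on single libraries: Farsb kept its call only when the library left out was control 1 or hypoxia 5 (adjusted p up to 0.119, without hypoxia 4), and Dars lost it without control 4, hypoxia 2 or hypoxia 4 (up to 0.0688 without control 4). Mars shares 68 exonic bases with Ddit3 on the opposite strand, and Ddit3, the stress-induced factor CHOP, rose (log2 fold change 0.56, adjusted p = 5.16e-06). The library kit does not mark strand, so reads of that stretch cannot be assigned. In all, 11 of the 20 cytosolic genes had every hypoxia library above every control library and 0 had the reverse, beside 6.72% and 7.26% of all genes tested.

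The 7 cytosolic genes that did not pass the test had log2 fold changes from -0.13 (Vars) to 0.11 (Rars). Rars, the arginyl enzyme, averaged 75.0 ± 4.29 CPM over the control libraries and 81.1 ± 2.21 CPM over the hypoxia libraries (log2 fold change 0.11, adjusted p = 0.0579), and the values were 0.07 for Kars, the lysyl enzyme (0.195), and 0.07 for Hars, the histidyl enzyme (0.174). Rars was called higher in 5 alternatives, by DESeq2 (adjusted p = 0.0181), with RLE factors (0.0421), by limma voom (0.0475), without control 1 (0.00605) and without hypoxia 5 (0.0492). The other 4 lay near or below 0: Qars, the glutaminyl enzyme (0.00), Farsa, the alpha subunit of the phenylalanyl enzyme (-0.002), Wars, the tryptophanyl enzyme (-0.02), and Vars, the valyl enzyme (-0.13, adjusted p = 0.155). Vars was at 46.3, 49.4, 55.3, 56.9, 60.0 and 58.3 CPM in control 1 to 6 and at 55.6, 49.6, 49.5, 45.7 and 48.0 CPM in hypoxia 1 to 5. Control 1, 2 and 3 lay within the hypoxia range and the other 3 controls above it, and without control 1 Vars passed the test as lower (log2 fold change -0.16, adjusted p = 0.0405). Wars, an interferon-inducible gene, had a similar spread in control, with control 1 at 97.3 CPM and control 5 at 130.4 CPM. The subunits of the phenylalanyl enzyme, which work as a tetramer, thus gave values near 0 for Farsa (SE 0.05) and of 0.13 for Farsb (SE 0.05), and their difference was not tested.

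Called genes lay both inside and outside the multi-synthetase complex. Of its 8 enzymes 5 were higher (Eprs, Iars, Lars, Mars and Dars) with a median of 0.14 on the log2 scale. Of the 12 other cytosolic genes 8 were higher, also with a median of 0.14. The share higher was 10.1% over all genes tested and 16.9% in the level range of the cytosolic set. The calls of Dars, in the complex, and Farsb, outside it, depended on single libraries. None of the scaffold genes of the complex was called higher: the log2 fold changes were 0.09 for Aimp1 (adjusted p = 0.139) and 0.20 for Aimp2 (0.0518), while Eef1e1, the third scaffold subunit, fell from 47.1 ± 3.19 to 39.7 ± 3.16 CPM (adjusted p = 0.00572).

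Calls among the mitochondrial synthetases went in both directions. Their shares, 12.5% higher and 25% lower, were not far from those of genes in their level range, 11.2% and 16.1%. The largest called change was in Mars2 (ENSMUSG00000046994, chromosome 1, 55237177 to 55248470), the mitochondrial methionyl enzyme, whose gene model has no intron. Mars2 was at 62.3, 57.4, 54.0, 54.5, 54.7 and 55.4 CPM in control 1 to 6 and at 41.1, 41.0, 41.7, 44.5 and 39.5 CPM in hypoxia 1 to 5. Every hypoxia library was below every control library, and the mean fell from 56.4 ± 3.14 to 41.6 ± 1.82 CPM (SD, n = 6 and 5; log2 fold change -0.44, SE 0.05, adjusted p = 5.48e-06). Its cytosolic counterpart Mars was at 72.2, 80.0, 76.9, 78.8, 76.3 and 74.8 CPM in control and at 85.8, 85.7, 83.6, 84.0 and 88.5 CPM in hypoxia, so the enzymes for methionine moved in opposite directions, each with separate groups.

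Wars2, the mitochondrial tryptophanyl enzyme, went the other way. It was at 16.3, 16.3, 16.02, 14.9, 15.6 and 15.5 CPM in control 1 to 6 and at 17.4, 21.5, 19.0, 18.0 and 17.8 CPM in hypoxia 1 to 5. The groups did not overlap, with hypoxia 2 the highest (log2 fold change 0.25, SE 0.06, adjusted p = 0.00639). Fars2, the mitochondrial phenylalanyl enzyme, was also higher, from 19.5 ± 1.12 to 21.9 ± 0.839 CPM (log2 fold change 0.17, adjusted p = 0.0269). It did not pass without control 2, control 6, hypoxia 2 or hypoxia 4 (adjusted p up to 0.0574). Fars2 shares 501 exonic bases with Nrn1 on the opposite strand, and Nrn1 rose from 92.0 to 113.8 CPM (log2 fold change 0.31, adjusted p = 0.000172). Reads of that stretch cannot be assigned without strand, and the part of Nrn1 in the Fars2 value was not tested.

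The 3 other mitochondrial genes called lower changed less than Mars2. Vars2, the valyl enzyme, was at 17.2, 20.5, 20.2, 20.5, 22.8 and 21.8 CPM in control 1 to 6 and at 18.1, 16.8, 17.9, 15.4 and 20.2 CPM in hypoxia 1 to 5. Control 1 was within the hypoxia range, and the call (log2 fold change -0.22, SE 0.07, adjusted p = 0.0458) held only when the library left out was control 1 or hypoxia 5 (adjusted p up to 0.125, without hypoxia 4). Rars2, the arginyl enzyme, was at 31.9, 28.4, 31.2, 29.2, 28.2 and 29.6 CPM in control and at 26.5, 25.4, 26.1, 28.3 and 25.7 CPM in hypoxia. Its hypoxia 4 value lay just above the lowest control (log2 fold change -0.17, SE 0.05, adjusted p = 0.0153, and 0.0630 without hypoxia 2). Tars2, the threonyl enzyme, fell from 30.3 ± 1.25 to 27.0 ± 0.893 CPM (log2 fold change -0.17, adjusted p = 0.0111). Hypoxia 1, at 28.5 CPM, lay above the lowest control, at 28.2 CPM. Tars2 did not pass with the replicate number as a block (adjusted p = 0.0506) or without the filter on low counts (0.0611), nor did Rars2 without that filter (0.0555).

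The other 10 mitochondrial genes did not pass the test. Hars2 and Iars2 were near the threshold, with log2 fold changes of -0.14 (adjusted p = 0.0570) and -0.11 (0.0526). Hars2, of which 195 exonic bases overlap Hars on the opposite strand, was at 24.7 to 28.6 CPM in control and 22.2 to 24.5 CPM in hypoxia, without overlap. Iars2, whose exons share 2034 bases with Rab3gap2 on the opposite strand, was at 53.8, 57.1, 57.3, 54.9, 53.7 and 54.0 CPM in control 1 to 6 and at 50.7, 53.9, 53.0, 49.4 and 48.6 CPM in hypoxia 1 to 5. All but hypoxia 2 were below the lowest control. Rab3gap2 rose from 92.9 to 101.5 CPM (log2 fold change 0.13, adjusted p = 0.0204), and its part in the Iars2 values and in the Iars to Iars2 ratio was not tested. Aars2, Cars2, Nars2 and Pars2 had log2 fold changes of -0.17, -0.13, -0.09 and -0.03, and Ears2, Sars2 and Yars2 lay between 0.00 and 0.02. The mitochondrial enzymes were also less abundant, with a median of 3.57 CPM per kb of exon in control, against 22.8 CPM per kb for the cytosolic set. Summed without Lars2, they made 335 to 344 CPM in the control libraries and 302 to 317 CPM in hypoxia. The mean of this sum went from 339 to 310 CPM, of which Mars2 alone made 56.4 CPM in control and 41.6 CPM in hypoxia. The cytosolic set summed to 2471 to 2611 CPM in control and 2833 to 2910 CPM in hypoxia.

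Lars2, the mitochondrial leucyl enzyme (chromosome 9, 123366927 to 123462666), could not be read as the others were. It was at 533, 3369, 249.97, 253, 254 and 252 CPM in control 1 to 6 and at 756, 332, 399, 341 and 279 CPM in hypoxia 1 to 5. Control 2 stood 10.9-fold above the mean of the other controls, and control 1 and hypoxia 1 also stood above the rest of their groups. The log2 fold change was -0.96 with an SE of 0.63 (adjusted p = 0.306) and turned to 0.45 without control 2 (adjusted p = 0.234). No other synthetase had such a spread: the coefficient of variation in control was 153% for Lars2, and the next was 11.9% for Sars2.

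The genes that stood highest in control 2 beside Lars2 were mostly noncoding and ribosomal RNA genes. Among genes with over 2000 counts in all, the 6 with the largest excess in control 2 were Gm24601, Gm15564, Lars2, Mir6236, CT010467.1 and Gm26917, of which Gm24601 and CT010467.1 are annotated as rRNA. Gm15564, an antisense gene on chromosome 16, was 11.8-fold above the other controls in control 2 and 2.38-fold above the other hypoxia libraries in hypoxia 1, where Lars2 was 2.24-fold above them. The ratio of Lars2 to Gm15564 stayed between 4.33 and 4.91 over all 11 libraries, while each gene's level varied more than 10-fold. An annotated Lars2 transcript and an annotated Gm15564 transcript share an identical stretch of 52 bases, in the last part of the Lars2 transcript (bases 3278 to 3329 of 3894), and reads were 50 bases long. The mitochondrial rRNAs mt-Rnr1 and mt-Rnr2 were 1.95-fold and 2.07-fold higher in control 2 but near the other hypoxia libraries in hypoxia 1 (1.07-fold and 0.946-fold). The part of ribosomal RNA reads in the Lars2 counts was not tested.

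**Figure D3:**
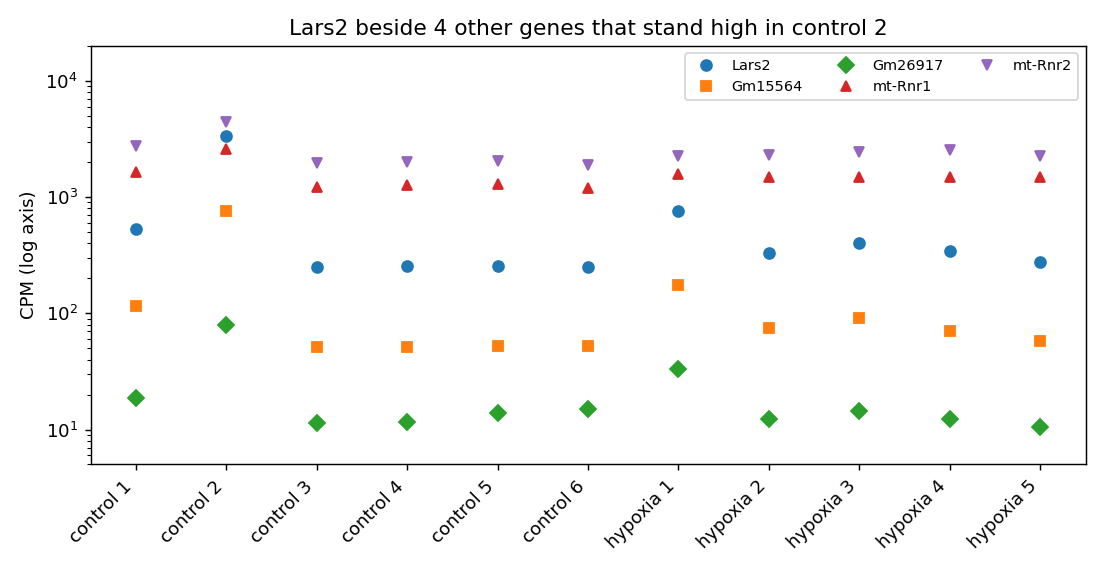
The level of Lars2, Gm15564, Gm26917, mt-Rnr1 and mt-Rnr2 in each library, in CPM on a log axis. Lars2 and Gm15564 run in parallel over the libraries, with Lars2 at 4.33 to 4.91 times the level of Gm15564. Both are highest in control 2 (3369 and 764 CPM) and next highest in hypoxia 1 (756 and 174 CPM).

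Enzymes for the same amino acid were set side by side, since a ratio within a library does not depend on how libraries are scaled. There were 17 such pairs, with Eprs set against both Ears2 and Pars2 and both subunits of the phenylalanyl enzyme against Fars2. In 14 pairs the cytosolic log2 fold change was above the mitochondrial one, or in 13 of 16 without the leucine pair, whose order turned without control 2. In 8 pairs every hypoxia library had a higher cytosolic to mitochondrial ratio than every control library, and in 0 pairs was the reverse seen. How often the ratios of other gene pairs separate was not counted, and the shares given for single genes do not apply to ratios. These 8 were the pairs for alanine, cysteine, isoleucine, methionine, asparagine, arginine, threonine and tyrosine. The ratio of Iars to Iars2 ran from 1.63 to 1.88 in control (median 1.72) and from 2.49 to 2.73 in hypoxia (median 2.69). That of Mars to Mars2 ran from 1.16 to 1.45 in control (median 1.40) and from 1.89 to 2.24 in hypoxia (median 2.09). In neither pair did the groups come near each other.

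The other separate pairs had smaller shifts. The ratio of Aars to Aars2 had a median of 24.97 in control and 33.1 in hypoxia, Cars to Cars2 of 4.495 and 5.95, and Tars to Tars2 of 2.43 and 3.16. Yars to Yars2 was barely separate, with the highest control at 11.026 and the lowest hypoxia library at 11.033. For Nars to Nars2 these values were 15.64 and 15.95, and for Rars to Rars2 they were 2.67 and 2.80. The median ratio was lower in hypoxia in 4 pairs, all with overlapping groups. Wars to Wars2 had a median ratio of 7.92 in control and 6.35 in hypoxia, and Farsa and Farsb over Fars2 had medians of 3.06 and 2.80, and of 4.90 and 4.87. The fourth was Lars to Lars2, with a median of 0.453 in control and 0.412 in hypoxia. Its difference in log2 fold change was the largest of all (1.14), in the opposite direction to its median ratio, and its ratio in control ran from 0.0360 in control 2 to 0.487. Without control 2 the log2 fold changes were 0.19 for Lars and 0.45 for Lars2, so the order turned.

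**Figure D4:**
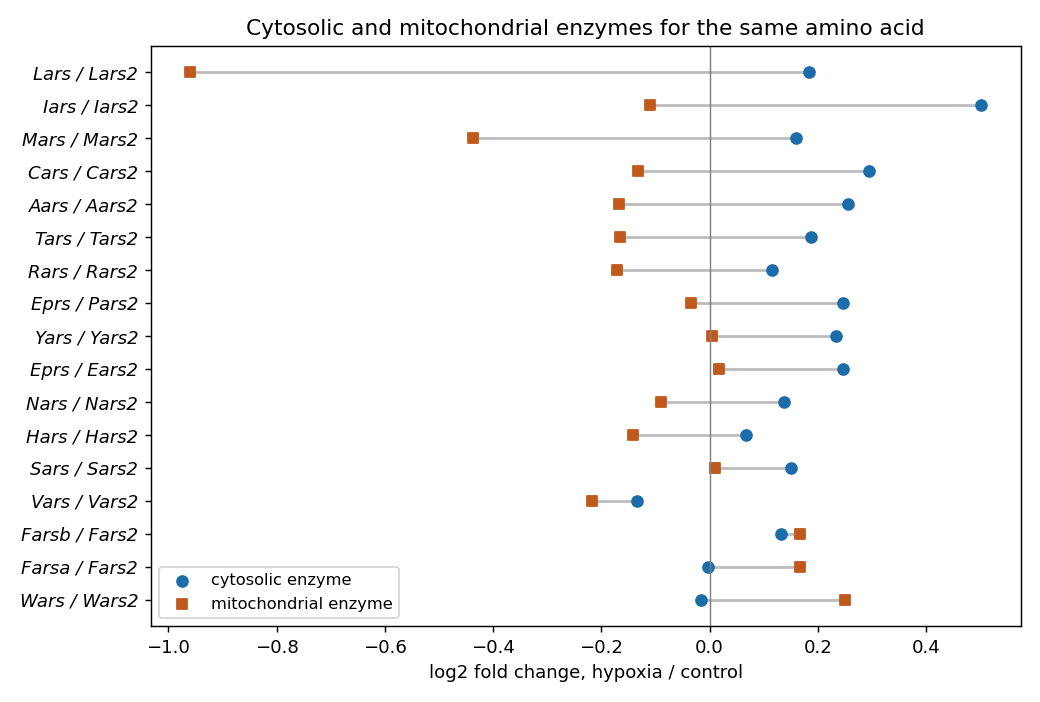
The log2 fold change of hypoxia over control for the cytosolic (circles) and mitochondrial (squares) enzymes of each of 17 pairs, ordered by the difference. The circle lies to the right of the square in 14 pairs; the leucine pair at the top rests on Lars2, whose value turns without control 2.

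None of the 17 partner and related genes listed was called higher, which in so short a list is not far from the 10.1% share. Of 17 partner and related genes 6 were lower and 0 higher, beside 12.8% and 10.1% of all genes tested, and the median on the log2 scale was 0.01; those named after the first 3 called (Pstk, Eef1e1 and Sephs1) were chosen with their values known. Pstk, the kinase that makes the precursor of selenocysteyl-tRNA, fell from 12.7 ± 1.51 to 9.05 ± 0.727 CPM (adjusted p = 0.000738), and Sephs1, a relative of the selenophosphate synthetase, from 54.5 ± 2.25 to 49.0 ± 2.62 CPM (0.0179). Mtfmt, which formylates the mitochondrial initiator methionyl-tRNA and so acts just after Mars2, fell from 11.6 ± 0.806 to 10.1 ± 0.366 CPM (adjusted p = 0.0317), and Qrsl1, a subunit of the enzyme that makes mitochondrial glutaminyl-tRNA, had a log2 fold change of -0.22 (0.0371). Aarsd1 was lower too, at under 1 CPM. For Xpot, the tRNA exporter, the value was 0.08 on the log2 scale (adjusted p = 0.143), and it was not called.

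Among translation factors, calls were near the shares over all genes tested (10.1% higher, 12.8% lower). Of 6 cytosolic elongation factor genes Eef1a1, which delivers aminoacyl-tRNA, rose from 849.6 ± 34.8 to 969.7 ± 34.9 CPM (adjusted p = 0.00129) and 0 were lower. Of 9 mitochondrial translation factors Tsfm, the exchange factor of the mitochondrial carrier Tufm, fell from 12.6 ± 0.637 to 10.9 ± 0.556 CPM (adjusted p = 0.0189) and 0 were higher. ATF4 and 13 other genes of its stress response were all higher (14 of 14, beside 10.1% of all genes tested), and their median was 0.57 on the log2 scale. This list was made with earlier results of these data known. In that list Asns, which makes asparagine, and Psat1, of serine synthesis, had log2 fold changes of 0.26 and 0.20, in the range of the cytosolic synthetases, while those of smallest p, Atf4, Chac1 (which breaks down glutathione) and Sesn2 (a stress-induced inhibitor of mTORC1), rose by 1.10, 1.63 and 0.94 on the log2 scale. Asns and Psat1 were picked with their values known.

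The authors' deposited table lists 14 cytosolic synthetases as higher and 0 as lower, and 2 mitochondrial ones as higher and 5 as lower. Over all genes it lists 2099 as higher and 1693 as lower, so more genes rise than fall there, the reverse of the calls made here. The authors' deposited table adds Rars (log2 fold change 0.12) and Hars2 (-0.14) to the genes called here, and gives 0.51 for Iars and -0.44 for Mars2.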

How the data were processed

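RNA was measured in 11 libraries of polyadenylated RNA. The submitters' processing notes name build mm10, STAR 2.5.2b as well as FastQC 0.11.5, DESeq2, and featureCounts beside Subread 1.5.1. Strand setting, annotation release and the handling of reads with several matches: not given in the sources used here. The authors deposited whole-number counts per gene ID, not normalized, and a table of their own comparison with log2 fold changes, adjusted p-values and a normalized signal per library, in which every library's counts are divided by 1 constant. Counts were tested with edgeR 4.0.16 (R 4.3.3): filterByExpr by group, TMM factors and the 2-sided quasi-likelihood F test with no covariate, with Benjamini-Hochberg adjustment and a threshold of 0.05. Each SE is the log2 fold change over the square root of F. The code was tested on simulated data. Alternatives used DESeq2 1.42.0, limma 3.58.1, other scaling, no filter, a replicate block and each library left out. The members and lists were chosen with earlier results of these data known. Positions, exonic lengths and overlaps are from GENCODE M21 (GRCm38), and promoters from RefSeq (GRCm38.p6). Members with values in every library were the 8 cytosolic and 4 mitochondrial called genes with the largest change and the 3 pairs that differed most, and in other lists the 3 called genes of smallest p; Vars, Wars and other values beyond that rule were added after they were seen. No pair of libraries in a group was a duplicate: the chi-square per gene between them was at least 2.34. It ran from 13.4 to 26.8 between control 2 and the other controls and from 8.60 to 14.1 between control 1 and the others. Among control 3 to 6 it ran from 2.34 to 5.08, and among the hypoxia libraries from 2.46 to 10.0. Control 1 and control 2 thus differed more from the other controls over all genes tested. A depth of 16619493 to 31917157 counts per library sets the precision, and errors are SDs over 6 and 5 libraries.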

Additional observations from a re-analysis of the deposited data

Results flagged for a closer look

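Each of the 36 synthetases was searched in both groups (72 searches) for a library far from the others of its group, which chance alone gives in about 1 search in 20. It was found in 5 cases. Lars2 stood at 3369 CPM in control 2, with the nearest control at 533 CPM, and at 756 CPM in hypoxia 1, with the nearest hypoxia library at 399 CPM. Yars stood at 206 CPM in hypoxia 5, with the nearest at 191 CPM. Cars stood at 90.4 CPM in hypoxia 1, with the other hypoxia libraries between 87.1 and 87.8 CPM. Yars2, the mitochondrial tyrosyl enzyme, stood at 19.6 CPM in control 1, the library with the fewest counts, with the nearest at 16.5 CPM.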

How the results depend on the processing

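The counts of called cytosolic genes stayed within 1.5 times of the values given under every alternative run, at 11 to 14 higher. The exception was 1 gene lower, Vars, without control 1 (0 to 1 when 1 library was left out). The mitochondrial counts rest on weak calls: without a filter on low counts 1 was higher and 1 lower, with the replicate block 1 was higher and 2 lower, and with 1 library left out 1 to 2 were higher and 2 to 4 lower. The mitochondrial median log2 fold change ran from -0.14 to -0.089 with 1 library left out. With control 2 and hypoxia 1 both left out, chosen after seeing the data, it was -0.085, and 1365 genes in all were lower. Pairs with separate ratios numbered 8 to 9. Pairing by replicate number was mixed (correlations of -0.103 to 0.306). For numbers 2 and 5 the control of the same number ranked 1 among the controls (0.141 and 0.306). For numbers 1, 3 and 4 it ranked 6, 4 and 4. The block lost the calls of Dars, Farsb, Fars2, Tars2 and Vars2. The direction of genes near 0 turned. Farsa was at 0.013 with DESeq2, 0.010 with RLE factors, 0.0087 without the filter and 0.014 with the block, and Wars at 0.00075 with DESeq2 and 0.013 with the block. Qars was at -0.0012 with upper quartile factors and -0.014 with the block, and Yars2 at -0.0073 with the block. With 1 library left out the log2 fold changes ran from -0.033 to 0.030 for Farsa, -0.015 to 0.019 for Qars, -0.051 to 0.022 for Wars, -0.018 to 0.069 for Yars2, -0.041 to 0.052 for Ears2, -0.056 to 0.065 for Sars2, -0.062 to 0.0010 for Pars2 and -1.28 to 0.45 for Lars2. With control 2 and hypoxia 1 both left out they were -0.013 for Qars, -0.065 for Ears2, 0.15 for Lars2, -0.068 for Sars2 and -0.0089 for Yars2. DESeq2 gave Lars2 no adjusted p. The cause of these shifts was not tested.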
